A study of Homo sapiens with 6 samples.

Results

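Ensembl-annotated long non-coding RNA (lncRNA) transcripts were studied in REH cells, which are a human line of B-cell precursor acute lymphoblastic leukemia (BCP-ALL) with the ETV6/RUNX1 fusion. Members were all probes of the custom lncRNA design whose transcript accession begins with ENST, the prefix of Ensembl transcripts, apart from ENST00000423278 and ENST00000456129. These transcripts were set aside by the rule, and both are among the transcripts with the largest decreases on these arrays. In total 12423 probes met the rule, out of 57176 probes on the array and 23042 in the custom design. The accessions listed for them numbered 15290, each on 1 member only, and the list was cut short in the files for 22 members.

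The design compared 3 arrays of REH cells with an shRNA against the ETV6/RUNX1 fusion (knockdown) with 3 arrays of REH cells with a non-targeting shRNA (control). All 6 arrays were hybridized with Cy3-labeled total RNA from the same line. According to the methods of the study, both hairpins came from a lentiviral vector with GFP, transduced cells were sorted on GFP, and the control hairpin was an ETV6 hairpin that left the fusion transcript untouched. REH cells lack wild-type ETV6. Replicates were numbered 1 to 3 in each group and are called biological triplicates by the study. As REH is 1 cell line and every knockdown used 1 hairpin, the comparison cannot tell the fusion apart from other effects of that hairpin.

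LncRNAs are transcripts without a long open reading frame, many of them spliced and polyadenylated like mRNAs, and some act on chromatin, transcription or RNA stability. Most are present at low copy number and in few cell types. ETV6/RUNX1 joins the ETS-family repressor ETV6 to RUNX1, a transcription factor of blood formation, and the fusion protein binds RUNX1 sites in B-cell precursors. LNCipedia, a catalog of human lncRNAs, names a transcript after a nearby protein-coding gene, so that lnc-BMP2K-1 is a lncRNA near BMP2K. Such a name was at hand for 559 members with 410 different names. The names came from transcript lists of the study, and one of these lists was picked on these arrays, so the share of named transcripts among changed members is no result. Any probe outside these lists carries no name here. Counts of called members within a name, and their agreement in sign, are therefore descriptions as well. All other members are given by accession.

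Median raw intensity per array was between 66 and 75, against 42.3 to 48.0 for the negative control spots. Values are given on a generalised log2 scale. For bright probes it is close to log2, whereas differences between dim probes come out too small. The ETV6 probe A_33_P3356325 read 7.92, 8.05 and 8.37 on the control arrays and 7.50, 7.46 and 7.29 on the knockdown arrays. The groups did not overlap, and the difference of -0.70 (SE 0.14) just missed the threshold (limma adjusted p = 0.0513). It was past the threshold in 3 of 18 alternatives. The other ETV6 probe never reached the flag for signal well above background, and where the probes lie in ETV6 was not analysed here. Of 14 B-cell precursor markers, 13 were well above background on all 6 arrays, among them CD79A, PAX5 and RAG1, and only VPREB1 was not. Markers of other cell types were well above background on all 6 arrays for 2 of 5 myeloid, 3 of 4 erythroid, 1 of 5 T cell and 3 of 5 epithelial or fibroblast genes, with KRT8 at 9.65 in control and 9.61 in knockdown. Of the myeloid genes, ELANE and CD33 lacked the flag on all 6 arrays, CD14 was 7.37 in control and 7.25 in knockdown, and MPO, a myeloid granule enzyme, was 13.95 in control and 11.93 in knockdown (difference -2.02, adjusted p = 0.00107). Its part in the results below was not tested. In these bulk samples, fewer cells with a transcript and less transcript per cell cannot be told apart.

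The study followed up lncRNAs with antisense LNA gapmeRs, short oligonucleotides that bring RNase H to a transcript, in experiments apart from these arrays. Of the targeted lncRNAs, 3 are measured here by an Ensembl member, and their gapmeR sequences are shown as the study lists them. Whether the measured transcripts hold the target sites was not analysed here. Each was designed as antisense to its target and is written from the 5′ end in lower case throughout. They are 15 or 16 bases long.
lnc-NKX2-3-1 gapmeR 1: tgctctgtgcggattg
lnc-NKX2-3-1 gapmeR 2: ctgatttttagtagtg
lnc-ASTN1-1 gapmeR 1: taatctgccaggagtg
lnc-ASTN1-1 gapmeR 2: gtctgaagtaatgga
lnc-RTN4R-1 gapmeR 1: gcattcatgggttaag
lnc-RTN4R-1 gapmeR 2: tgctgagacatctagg

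First, it was determined how many of the transcripts gave a signal in REH cells. Between 24.0% and 29.6% of the Ensembl members were well above background on single arrays, fewer than the catalogue probes of the same arrays, which mainly stand for mRNAs. By the flag of the scanner software for signal well above background, the share was 29.6%, 27.5% and 24.0% on control replicates 1, 2 and 3. On knockdown replicates 1, 2 and 3 it was 27.7%, 26.9% and 28.5%. The control arrays therefore spanned the whole range of the knockdown arrays. Mean shares of 27.0% ± 2.84 (SD, n = 3) for control and 27.7% ± 0.837 for knockdown gave a difference of 0.647 percentage points (exact permutation test, two-sided p = 0.8, where 3 arrays against 3 cannot give less than 0.1). Control replicate 3 had the lowest share in every probe class, and without it the difference became -0.875 percentage points.

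Catalogue probes reached shares of 60.7% to 65.8%, and Ensembl minus catalogue gave a difference of -36.4 percentage points (SD 0.353 over 6 arrays). The gap was found on 6 of 6 arrays (exact sign permutation test, two-sided, p = 0.03125, the smallest value 6 arrays allow). The other large class of the custom design comprises transcripts assembled from RNA sequencing reads, whose accessions begin with TCONS. Ensembl members exceeded the 10565 TCONS probes by 1.37 percentage points (SD 0.354), again on 6 of 6 arrays (p = 0.03125 by the same exact test). This gap was 0.81 percentage points by the scanner's flag for positive and significant signal. All 4 comparisons of shares between probe classes gave this p, and it was 0.03125 after Benjamini-Hochberg adjustment over the 4.

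Members were not uniform. A total of 9634 members carried Ensembl accessions alone, and 2789 carried a TCONS accession as well. Of the first kind, 29.3% ± 2.99 (SD, n = 3) were well above background on control arrays and 29.9% ± 0.919 on knockdown arrays, compared with 19.4% ± 2.32 and 19.9% ± 0.577 of the second. The difference was 9.96 percentage points (SD 0.516, 6 of 6 arrays, exact sign permutation test, p = 0.03125). Against probes with a TCONS accession alone, members with both accessions differed by -6.36 percentage points (SD 0.166, 6 of 6 arrays, p = 0.03125 by the same exact test). Thus transcripts found in both catalogs had the lowest share of the 3 lncRNA classes.

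**Figure D1:**
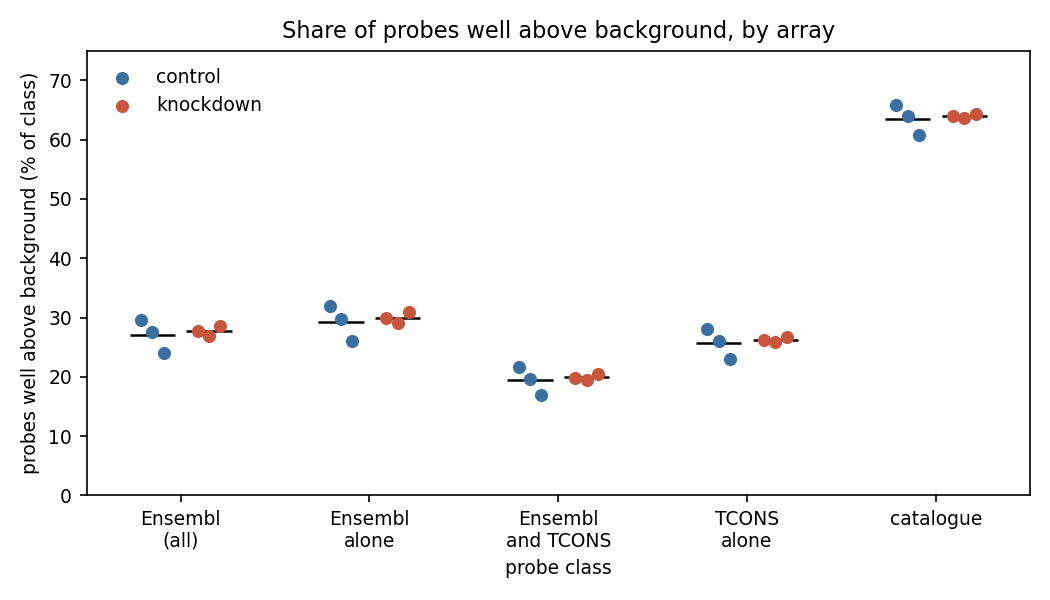
Share of probes well above background by the scanner flag (y axis, percent of the class) for 5 probe classes (x axis), with 1 point per array in blue for control and red for knockdown and a bar at the group mean. Ensembl members lie between 24.0% and 29.6%, catalogue probes between 60.7% and 65.8%, and the groups overlap in each class.

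Across arrays, 2529 members (20.4%) were well above background on all 6 arrays and 7368 (59.3%) on none. The remaining 2526 members (20.3%) switched between arrays. Of these, 11 were well above background on all 3 control arrays and no knockdown array, and 11 on all 3 knockdown arrays and no control array (0.0885% each, beside 0.129% and 0.0927% of all probes on the array). The former included both members of lnc-TM2D1-2, ENST00000418662 and ENST00000438559, and 5 of them were called in the test below, where 1.74% of all retained probes were called. As the flags come from the same arrays as the test, this pattern favours a call, and the count is a description. The latter included ENST00000412068 of lnc-TINAGL1-1 and ENST00000426607 of lnc-ERG-2, and none was called. With replicate number as a block in the fit, ENST00000426607 was called (at least 1.70-fold higher, limma adjusted p = 0.0133), as were the other 3 members of lnc-ERG-2. Absence of the flag means that a signal was not detectable at this depth of intensity, not that the transcript is absent.

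Next, levels were compared. On the 2529 members well above background on all arrays, the median level per array was between 7.22 and 7.24 in control and between 7.19 and 7.22 in knockdown. These medians differed by -0.026 (exact permutation test, p = 0.2). For catalogue probes selected in the same way, the median per array lay 2.21 above that of the members (SD 0.035, 6 of 6 arrays, exact sign permutation test, p = 0.03125). Levels of different probes depend on the probe sequence as well as on the transcript, so this gap describes the classes and ranks no transcript. Among members, those with Ensembl accessions alone had medians 0.36 above those that also carried a TCONS accession (SD 0.036, p = 0.03125 by the same exact test on 6 arrays). A control mean above 10 was found for 272 of the 2529 members (10.8%), and above 14 for 37 (1.46%). On control replicate 1, the middle of the distribution, between its quartiles, ran from 6.48 to 8.59.

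**Figure D2:**
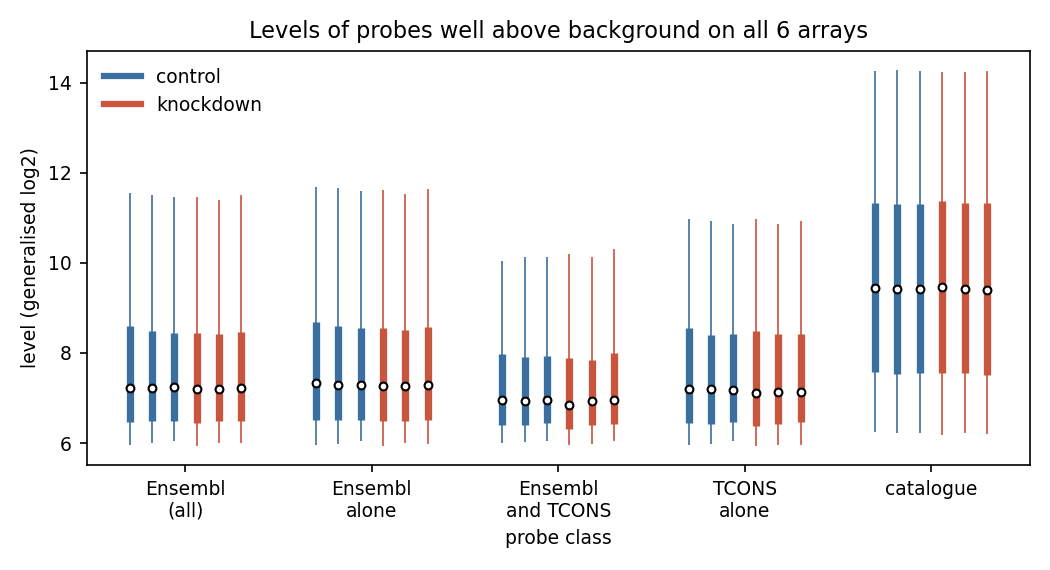
Levels on the generalised log2 scale (y axis) of the probes well above background on all 6 arrays, by probe class (x axis) and array (blue control, red knockdown). Thick bars span the quartiles, thin lines the central range without the outer 5% on each side, and circles mark medians, which are near 7.2 on each array for Ensembl members and near 9.4 for catalogue probes.

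The 5 members with the highest control mean illustrate the top of this range. ENST00000428643 read 16.74, 16.84 and 16.88 on control arrays and 16.78, 16.83 and 16.93 on knockdown arrays. ENST00000400768 read 16.52, 16.43 and 16.35 in control and 16.28, 16.41 and 16.45 in knockdown. Both sets of values overlapped between the groups, with differences of 0.03 (SE 0.10, limma adjusted p = 0.936) and -0.05 (SE 0.10, adjusted p = 0.877). ENST00000452197 and ENST00000414075 had control means of 15.45 and 15.39 and differences of 0.07 and 0.08. In both, replicate 1 was the brightest array of each group. The fifth, ENST00000411904 of lnc-AGPAT2-1, read 15.17, 15.41 and 15.13 in control and 14.59, 14.86 and 14.56 in knockdown. Its groups did not overlap, and its difference of -0.57 (SE 0.13) was not called without the replicate block (adjusted p = 0.0805) but was with it (0.0201).

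To study which transcripts changed when the fusion was silenced, knockdown was compared with control over the 27490 retained probes, of which 3239 were members (26.1% of all members). A probe is said to be called where the Benjamini-Hochberg adjusted p of limma, taken over all retained probes, is under 0.05. Of the members, 58 were called (1.79%), beside a background of 1.74% of all retained probes. Decreases made up 52 of them (1.61%, where 1.28% of all retained probes were called lower) and increases 6 (0.185%, where 0.458% were called higher). The total share was near that of all retained probes. The share called higher was below the background, on only 6 members, and this difference was not tested. The median difference was 0.00 over retained members, as over all retained probes, and 49.8% of retained members were below 0. Groups did not overlap for 540 retained members (16.7%, against 18.9% of all retained probes) and for 57 of the 58 called ones. At an unadjusted p under 0.05 there were 386 members (11.9%, against 12.5% of all retained probes).

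Same-numbered arrays deviated together, most clearly for replicate 1, whereas replicates 2 and 3 were hardly told apart. No label pairs the arrays. The replicate number was used as a block, so calls with it rest on a pairing read from these same data. With the replicate block 116 members were called (3.58%, with 3.79% of all retained probes), 86 lower and 30 higher, and they included all 58 members called without it. Leaving out control replicate 2 lowered the count to 30, knockdown replicate 3 to 33, and control replicate 1 or knockdown replicate 2 to 36 each. The arrays lie in 2 rows of the slide, with control replicates 1 and 2 in one row and control replicate 3 and all knockdown arrays in the other, so that only control replicate 3 separates row from group. With the row as a term 40 members were called (1.23%, with 0.826% of all retained probes), and 14 of the 58 calls remained. These were ENST00000421151, 6 of the 9 members of lnc-BMP2K-1, both members each of lnc-SLC12A7-4, lnc-NBPF6-3 and lnc-TM2D1-2, and ENST00000510200 of lnc-CISD2-3, whereas the other 44 were no longer called. Their differences kept the same sign in all 44 and a median of 87.3% of their size (65.0% to 127%), while the median SE went from 0.13 to 0.18. With scaling on the spike-in controls the median of all retained probes became 0.25 and left 10 members called, 7 lower and 3 higher, so that every direction given here is relative to the bulk of probes.

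The share of called members varied with brightness. Among retained members with a control mean from 8 to 10, 31 of 576 were called (5.38%, beside 2.63% of all retained probes in this range), 27 lower and 4 higher. Of these 31, 11 belong to only 2 lncRNAs, lnc-BMP2K-1 and lnc-TGFBRAP1-6. In the range from 6 to 7 the count was 8 of 1136 (0.704%, beside 1.59%), and above 12 it was 1 of 90 (1.11%, beside 0.643%). Standard errors had similar medians in these ranges, 0.13, 0.13 and 0.15. Among called members, 47 were well above background on all 6 arrays. A further 10, all lower, had no knockdown array well above background, and for these the fold is a lower bound. Folds of called members reached 3.81. At least 2-fold changes were found for 24 lower and 2 higher members, and a further 4 with a fitted decrease of this size had bounds of only 1.71 to 1.92.

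**Figure D3:**
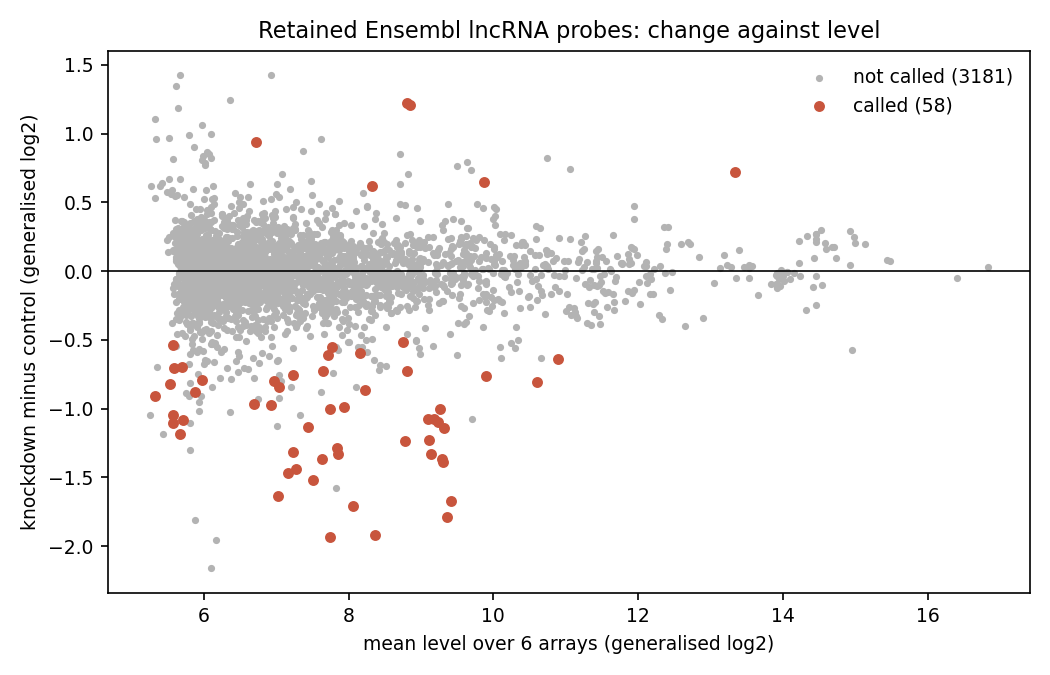
Difference between knockdown and control (y axis, generalised log2) against mean level over 6 arrays (x axis) for the 3239 retained members, with the 58 called members in red. Most called members lie below 0, and the grey points furthest from 0 that were not called lie mainly at levels under 7.

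The largest called decrease was that of ENST00000421151, a transcript without a name here. It read 8.93, 8.80 and 8.40 on control arrays and 6.61, 6.82 and 6.90 on knockdown arrays. All control arrays were above all knockdown arrays. The difference was -1.93 (SE 0.15, limma adjusted p = 0.00107), and the call was kept in each of 18 alternatives.

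Among named lncRNAs, lnc-BMP2K-1 had the highest number of called members. BMP2K, the gene in its name, encodes a kinase induced by bone morphogenetic protein. All 9 members of lnc-BMP2K-1 were retained and all 9 were called lower, with differences from -1.92 to -1.33 and adjusted p from 0.00107 to 0.00651. ENST00000511895 read 9.36, 9.48 and 9.13 in control and 7.73, 7.21 and 7.27 in knockdown, a difference of -1.92 (SE 0.16, adjusted p = 0.00133). ENST00000509088, among the brightest of the 9, read 10.28, 10.40 and 10.11 in control and 8.70, 8.23 and 8.49 in knockdown (difference -1.79, SE 0.14). ENST00000505149, the dimmest, read 8.15, 8.06 and 7.76 in control and 6.77, 6.22 and 6.66 in knockdown (difference -1.44, SE 0.17). Hence control means of the 9 spanned 7.99 to 10.26 while their differences lay within 0.59 of one another. Knockdown replicate 1 was the highest knockdown array for 7 of the 9 members. These members target transcripts of 1 locus and may share sequence, so they are not independent measurements. Probes of the locus outside the study's lists would carry no name, so 9 of 9 describes the named probes only. Of the 9 calls, 5 were kept in each of 18 alternatives, and the other 4 were kept in 16 or 17.

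Several members were also called for lnc-TGFBRAP1-6. All 5 members with this name were called lower, with differences from -1.14 to -0.86 and adjusted p from 0.00762 to 0.0305. TGFBRAP1 encodes an adaptor protein that binds TGF-beta receptors. Its member ENST00000458253 read 10.08, 9.90 and 9.70 in control and 8.98, 8.61 and 8.66 in knockdown. In all 5 members the groups were separate. With the slide row as a term, which sets control replicate 3 against the knockdown arrays of the same row, the 5 differences were -0.96 to -0.69 and none was called (adjusted p from 0.108 to 0.348).

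Members of lnc-CCDC140-1 showed smaller differences. All 6 were retained and lay between -0.61 and -0.41, of which 3 were called (ENST00000542880, ENST00000446532 and ENST00000429475). ENST00000542880 read 8.10, 8.01 and 7.95 in control and 7.31, 7.40 and 7.52 in knockdown (SE 0.10, adjusted p = 0.0269). The brightest member, ENST00000424010, read 10.56, 10.54 and 10.42 in control and 9.74, 10.00 and 10.22 in knockdown and was not called (adjusted p = 0.131). Groups were separate for each of the 6. The replicate block called 4 of them. The 3 calls were kept in only 8, 6 and 5 of 18 alternatives, with adjusted p up to 0.314, 0.428 and 0.514.

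Pairs of called members were found for 4 further lncRNAs. Of these, lnc-SLC12A7-4 was named by rule and is given below, and the others were named after their values were seen. Both members of lnc-NBPF6-3 were lower, by -1.33 and -1.29. ENST00000451023 read 8.53, 8.65 and 8.37 in control and 7.12, 7.19 and 7.25 in knockdown (SE 0.11, adjusted p = 0.00107). Both retained members of lnc-CISD2-3 were lower, by -0.99 and -0.97 (adjusted p = 0.00834 and 0.0027). Neither member of lnc-TM2D1-2 had a knockdown array well above background, and they were at least 1.92-fold and at least 1.91-fold lower there (adjusted p = 0.00198 and 0.00706). All of these were single loci with members on the same side of 0.

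Increases were fewer. Both members of lnc-SLC12A7-4 rose more than any other called member, and SLC12A7 encodes a potassium-chloride cotransporter. ENST00000543306 read 8.26, 8.30 and 8.02 in control and 9.40, 9.35 and 9.49 in knockdown, a difference of 1.22 (SE 0.11, adjusted p = 0.00175). ENST00000399869 read 8.31, 8.25 and 8.17 in control and 9.40, 9.37 and 9.59 in knockdown, a difference of 1.21 (SE 0.10, adjusted p = 0.00133). The gap between groups was over 1 in both members, and both calls were kept in each of 18 alternatives. ENST00000416261 of lnc-KATNAL1-3 rose by 0.94 (SE 0.13, adjusted p = 0.0116), from 6.10, 6.38 and 6.28 to 7.32, 6.98 and 7.28. KATNAL1 encodes a microtubule-severing ATPase. The other 7 members of lnc-KATNAL1-3 had differences from 0.63 to 0.82 and were not called, with adjusted p up to 0.411, although the replicate block called 7 of the 8. Of the 8 members, 6 were highest on replicate 1 of both groups.

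Single members made up the remaining increases. ENST00000464767 of lnc-C14orf49-1 read 13.06, 12.91 and 12.95 in control and 13.85, 13.48 and 13.75 in knockdown (difference 0.72, SE 0.12, adjusted p = 0.0278). ENST00000570130 of lnc-TNK2-2 had 0.65 (SE 0.12, adjusted p = 0.0463) and ENST00000458178 of lnc-PPIL2-1 had 0.62 (SE 0.10, adjusted p = 0.0195). Their calls were kept in 11, 5 and 10 of 18 alternatives, respectively.

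Single members of lnc-CMPK2-3 and lnc-XKR4-1 were also among the 12 largest decreases. ENST00000382045 of lnc-CMPK2-3 read 8.34, 7.63 and 7.56 in control and 6.63, 6.09 and 5.91 in knockdown. Replicate 1 was the highest array of each group, and the difference of -1.64 (SE 0.25) had an adjusted p of 0.0187 in limma and 0.00108 with the replicate block. ENST00000518261 of lnc-XKR4-1 read 8.20, 8.61 and 8.14 in control and 6.95, 7.07 and 6.84 in knockdown (difference -1.37, SE 0.14, adjusted p = 0.00361). Their calls were kept in 12 and 16 of 18 alternatives.

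**Figure D4:**
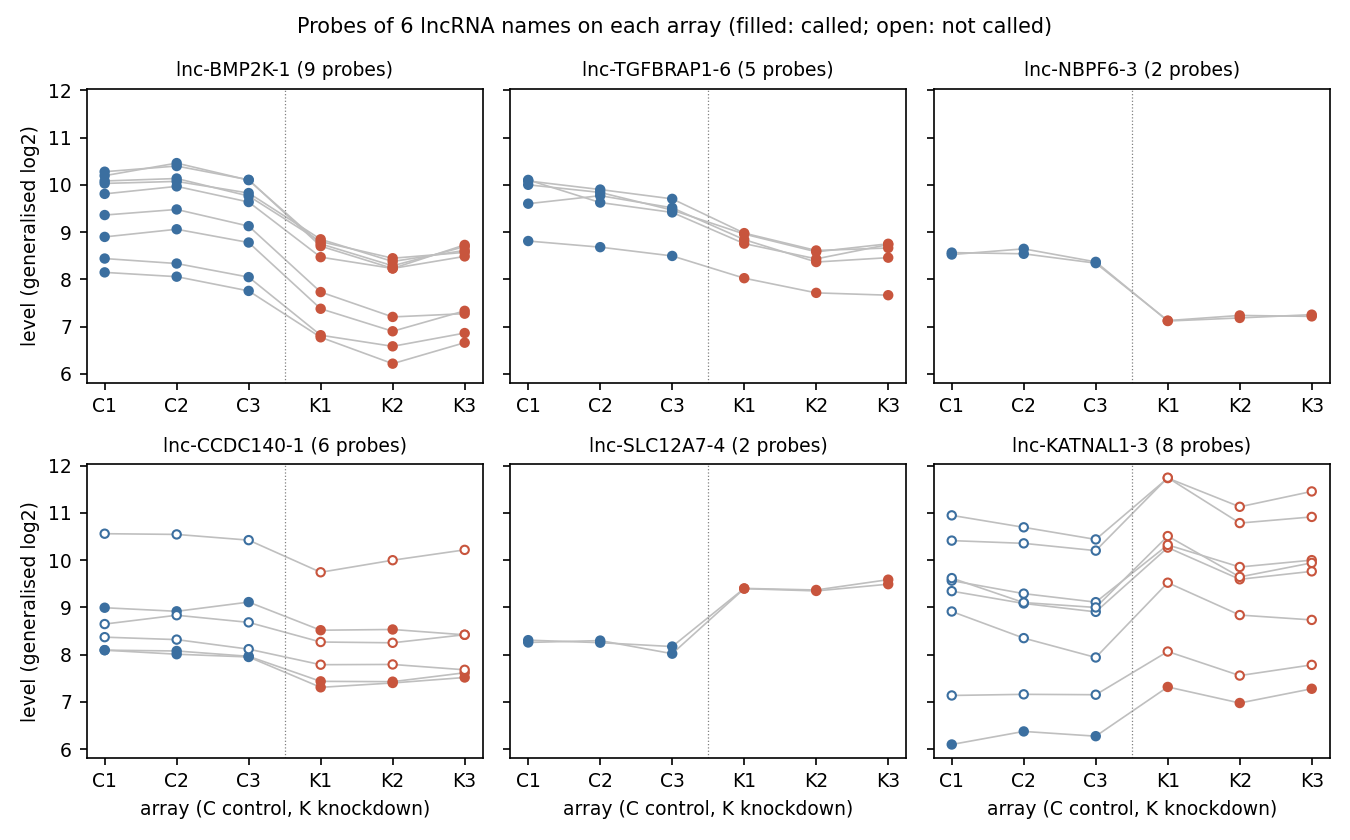
Level on each array (y axis, generalised log2) of the retained members of 6 lncRNA names (panels), with control arrays C1 to C3 in blue and knockdown arrays K1 to K3 in red on the x axis. Grey lines join the values of 1 probe, filled points are called members and open points are not. Members of lnc-BMP2K-1, lnc-TGFBRAP1-6 and lnc-NBPF6-3 are lower on every knockdown array, and both members of lnc-SLC12A7-4 are higher.

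It was further asked whether members of 1 lncRNA moved alike. Of 56 names with at least 2 retained members, all retained members lay on the same side of 0 for 52. For all 12 of these names that had a called member this was the case. The probes of a name can share target sequence and array effects, so this is a description of the probes with no test. Probes carry a name only through the study's lists, 1 of which was picked on these arrays. Unlike probes of a locus can therefore be missing from these counts. Another description comes from catalogue probes that carry the accession of a member. Such pairs were retained together 98 times, and differences of the 2 probes had the same sign in 72 pairs (r = 0.63 across pairs, which share the same 6 arrays and are not independent replicates). Where the member changed by at least 0.5, the signs were the same in 3 of 5 pairs. Only 1 member among the pairs was called, ENST00000543306, and its catalogue probe, also called, gave 1.35 (SE 0.12, adjusted p = 0.0019). The other catalogue probe that was called, A_33_P3296230, had no knockdown array well above background and was at least 1.36-fold lower there (adjusted p = 0.0334). Its member ENST00000538113, well above background on 2 control arrays and 1 knockdown array, was not called (adjusted p = 0.936).

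Protein-coding genes in the names of changed lncRNAs were then set side by side with them, without a test between probes. Called members had 28 different names, and for 24 of these the gene had a retained catalogue probe. Of these genes, which had 30 retained probes, 2 were called, each on 1 probe, where 1.74% of all retained probes were called. XKR4, of the XK-related membrane protein family, fell by 1.43 (SE 0.10, adjusted p = 0.00059), from 8.96 ± 0.05 (SD, n = 3) to 7.53 ± 0.09, beside -1.37 for lnc-XKR4-1. GNG11, a G protein gamma subunit, fell by 1.06 (SE 0.15, adjusted p = 0.0148), from 14.29 ± 0.02 to 13.23 ± 0.30, beside -0.97 (adjusted p = 0.0249) for ENST00000415536 of lnc-GNG11-3. Whether the lncRNA probes overlap transcripts of these genes was not analysed here.

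For the other lncRNAs the gene in the name gave smaller values. The 3 probes of BMP2K had differences of -0.25, -0.35 and -0.36 (adjusted p from 0.225 to 0.518), beside -1.92 to -1.33 for the 9 members of lnc-BMP2K-1. TGFBRAP1 had 0.05 (SE 0.10) and NKX2-3 had 0.14 (SE 0.14). CISD2 had 0.34 (SE 0.10, adjusted p = 0.181), on the other side of 0 from lnc-CISD2-3. SLC12A7 had 0.38 (SE 0.17, adjusted p = 0.412) on its bright probe, and KATNAL1 had 0.04 (SE 0.12). The replicate block, which called 3.79% of all retained probes, called 3 genes more, CLSTN3 (-0.61, adjusted p = 0.0216 with the block), SYNE3, formerly C14orf49 (0.53, 0.0395), and TNK2 (0.43, 0.0496). The other CLSTN3 probe had -0.19 and was not called with the block (adjusted p = 0.395). On the probe of lowest p, 16 of the 24 genes lay on the same side of 0 as their lncRNA.

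**Figure D5:**
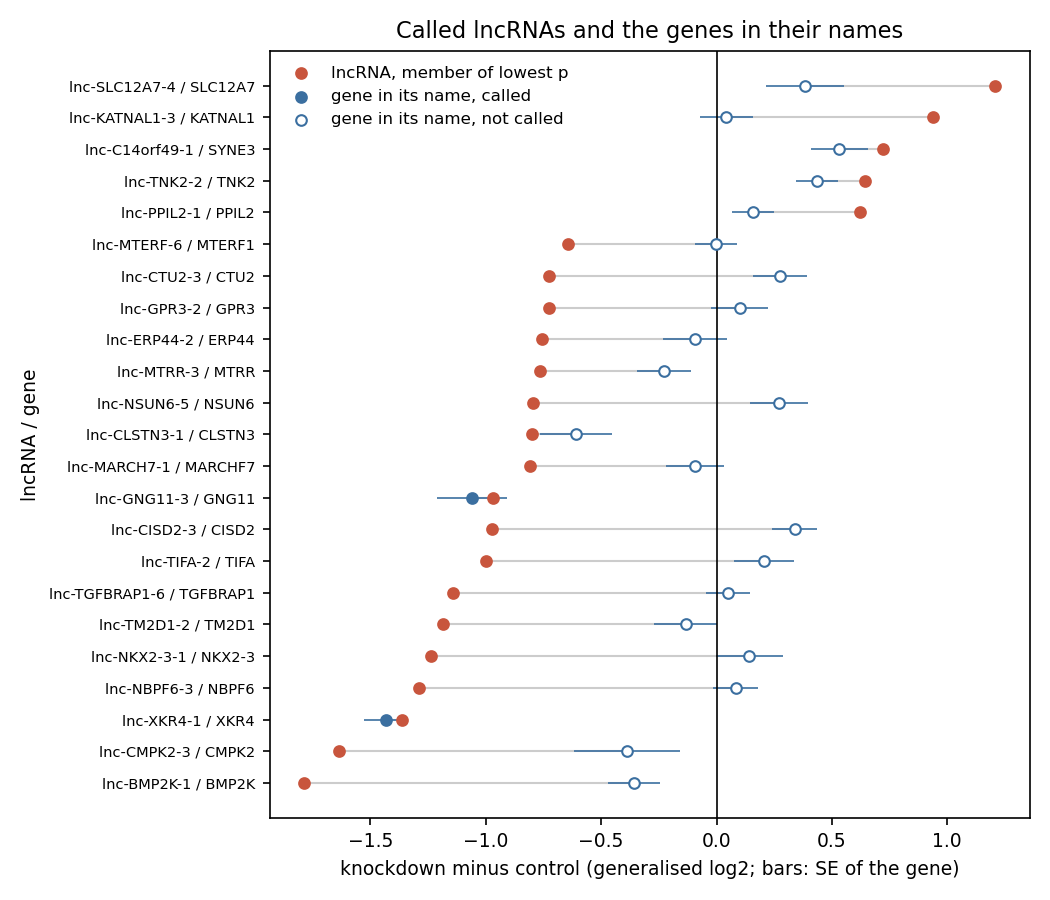
Difference between knockdown and control (x axis, generalised log2) of the member with the lowest p for 23 of the 24 lncRNA names (red) and of the protein-coding gene in the name (blue, filled where called, with its SE), 1 pair per row on the y axis. XKR4 and GNG11 lie beside their lncRNAs, whereas most genes lie nearer to 0.

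The study tied 16 lncRNAs to ETV6/RUNX1 in other samples, and 14 of these had Ensembl members, 20 in all. Of the 20, 16 were retained and 1 was called, where 1.74% of all retained probes were called. A part of this list had been named by the study from these arrays, so that it is not independent evidence of a direction. ENST00000452494 of lnc-NKX2-3-1, the target of the first pair of gapmeRs, read 9.57, 9.44 and 9.18 in control and 8.40, 7.99 and 8.10 in knockdown. Its groups were separate by 0.79, with a difference of -1.24 (SE 0.15, adjusted p = 0.00637), and the call was lost in 2 of 18 alternatives.

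Neither member of lnc-ASTN1-1 was called without the block. ENST00000438575 read 11.02, 10.88 and 11.05 in control and 10.68, 10.13 and 10.25 in knockdown (difference -0.63, SE 0.15, adjusted p = 0.109). ENST00000458070 read 9.21, 9.15 and 9.20 in control and 8.83, 8.47 and 8.71 in knockdown (difference -0.51, SE 0.12, adjusted p = 0.0876). Groups were separate in both, and the replicate block called both (adjusted p = 0.0428 and 0.0457). ENST00000506039 of lnc-RTN4R-1 read 11.63, 11.46 and 11.54 in control and 11.17, 11.04 and 11.25 in knockdown. Its groups were separate as well, its difference was -0.39 (SE 0.10), and it was not called with or without the block (adjusted p = 0.0759 and 0.141). The study, by its own filter and test, reports both lnc-ASTN1-1 and lnc-RTN4R-1 as changed by the knockdown at an adjusted p under 0.05. Why the calls differ here was not tested.

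Of the remaining lncRNAs on the list, lnc-LRP8-3 varied most between replicates. ENST00000449958 read 12.24, 11.28 and 11.58 in control and 12.89, 11.80 and 11.83 in knockdown, so that the groups overlapped although each knockdown array was above the control array of the same number (difference 0.47, SE 0.34, adjusted p = 0.629 and 0.0727 with the block). ENST00000454882 of lnc-FARS2-1 had -0.34 (SE 0.11, adjusted p = 0.226). The retained members of lnc-GIP-1, lnc-LSM11-4, lnc-POTEG-4, lnc-POTEM-2, lnc-SARDH-1, lnc-TINAGL1-1, lnc-C8orf4-1 and lnc-C8orf4-2 had differences from -0.22 to 0.27 and adjusted p of at least 0.412. The highest of these, ENST00000412068 of lnc-TINAGL1-1, had no control array well above background and was at least 1.21-fold higher in knockdown. The member of lnc-TCF12-2 and 1 or more members of lnc-POTEG-4 and lnc-TINAGL1-1 were not retained.

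Finally, some members differed more between replicates than between groups. The 5 retained members with the largest SD over 6 arrays that were not called had values far above the rest on a single array. ENST00000416401 read 10.34, 6.27 and 4.84 in control and 5.56, 4.81 and 5.21 in knockdown. ENST00000505527 and ENST00000548457 were likewise high on control replicate 1 (10.09 and 9.69) and lower on control replicate 2 (6.39 and 6.31), and lacked the flag on control replicate 3 and on each knockdown array. ENST00000523602 read 10.52 on knockdown replicate 1 and from 6.03 to 6.47 on the other 5 arrays. ENST00000429664 read 9.72 on knockdown replicate 1 and from 5.39 to 5.90 elsewhere. Adjusted p of the 5 ran from 0.47 to 0.664, and replicate 1 of 1 group was the high array in each.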

How the data were processed

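Per the file headers, the authors extracted spot intensities with Feature Extraction 10.7.1.1. For each spot the deposited scanner files give the raw median intensity, the local background, a processed intensity and other values, namely flags. The authors also deposited normalized log2 values of 27869 probes from the same arrays. According to the methods of the study, values were normalized by variance stabilization (VSN), subtracted for background and filtered against negative controls. Here the VSN model was written anew in Python and fitted to raw median intensity with the 0.9 quantile of least squares kept. Outlier-flagged spots were dropped, so that ENST00000522554, a called member, has no value on knockdown replicate 2, and spots of a probe were averaged. Probes were retained if they exceeded 1.1 times the 0.95 quantile of 308 negative control spots on 2 of the 3 arrays of a group. Values correlated with the deposited ones with r over 0.999 on each array, across probes.

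Knockdown was compared with control in limma 3.58.1 (R 4.3.3, two-sided, no block), with Benjamini-Hochberg adjustment over all retained probes. The arrays share 1 slide and 1 scan, and slide row, which nearly coincides with group, was tried as a term. The number of arrays limits the precision. Deviations of same-numbered arrays from their group means correlated with r = 0.426, 0.287 and 0.204, and those of differently numbered arrays with r from -0.331 to 0.187, so that replicates 2 and 3 are hardly told apart. By this, and not by any label, the numbers were taken to pair the arrays. Shares and medians were tested by exact permutation over arrays. Where no array of a group had a probe well above background, the fold is a bound. There each array of that group entered with the probe's own value or, if higher, the lowest value of any flagged probe on that array. Both steps, normalization and limma, were tested on simulated data.

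Members, lists and rules were chosen with earlier results of these data known. Named members are the 12 lower and 8 higher accessions with the largest change among called members whose groups do not overlap (6 were higher), all members of lncRNA names with at least 3 called members, all members of the study's 16 lncRNAs, the 5 brightest, and the 5 most variable that were not called. Others were named after their values were seen. One lncRNA name and one marker within these rules are counted but not reported here by name. Catalogue probes were named through RefSeq accessions (25728 of 34134 matched). Transcript positions, sequences and gene symbols of the members were not analysed here.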

Additional observations from a re-analysis of the deposited data

How the results depend on the processing

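The replicate block raised the calls among members from 58 to 116 (86 lower, 30 higher) and kept all 30 called members that are named by rule. Spike-in scaling left 10 (7 lower, 3 higher), with 9 of these 30, and no filter left 32 (29 lower, 3 higher), with 19 of the 30, since 57176 probes were then tested. With the slide row as a term, 40 members were called, 14 of them also called without it, with 2 higher and 9 of the 30. Leaving out both replicate 1 arrays gave 77 calls with 23 higher. Leaving out single arrays gave 30 to 70 calls, 26 to 57 lower and 3 to 13 higher, with 16 to 27 of the 30. The other alternatives gave 49 to 59 calls, namely the 75th percentile, normexp with quantile normalization, the deposited values, the scanner flag or raw intensities as a filter (the latter chosen after seeing the data), outlier-flagged spots kept, a robust prior, and probes of 1 accession averaged. Where not stated, the cause was not tested. Signs held for 57 of the 58 called members throughout. ENST00000522554 turned to 0.60 with outlier-flagged spots kept, since its flagged spot then counts, and to 0.94 in the deposited values, where the cause was not tested.

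The difference in share above background between groups ran from -0.87 to 1.93 percentage points without single arrays and was 0.647 with the replicate block, the mean of 3 pairs (exact sign permutation test, p = 1, where 3 pairs cannot give less than 0.25). The gap to TCONS probes ran from 1.28 to 1.46 and that to catalogue probes from -36.5 to -36.3 percentage points, with p = 0.0625, the smallest that 5 arrays allow in this exact test. By the flag for positive and significant signal the gap to catalogue probes was -27.4 and that to TCONS probes 0.81. The median level of members differed by 0.19 under spike-in scaling in place of -0.026 (exact p = 0.2 in both). Weak intensity limits the dim members, for which only bounds can be given.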
